A study of Mus musculus with 18 samples.

Results

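Genes best known from Sertoli cells, the supporting cells of the testis, were followed in the perinatal mouse ovary. The 8 genes are Sox9, Sox8, Dmrt1, Fgf9, Amh, Ptgds, Cst9 and Tesc. They were taken by name, as every non-control probe that carries 1 of these 8 gene names on the array, which gave 12 of 41174 non-control probes and 8 of 27396 gene names. The samples were whole XX gonads of mice, knockout for Elavl2 or wild type, at 2 embryonic stages (E15.5 and E17.5, in days) and on the day of birth (P0). Each of the 6 groups, listed as E15.5 knockout (KO) and wild type (WT), E17.5 KO and WT, and P0 KO and WT, held 3 samples on 3 arrays. ELAVL2, an ELAV family protein, binds RNA. The sources used here give neither the deleted stretch of Elavl2 nor the strain, and the labels call each sample mixed without saying what was mixed. Nothing says that the samples of a group are from different animals, so a p-value here measures the scatter of these samples, which may be technical.

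In the XY gonad, the transcription factor SOX9 and the secreted factor FGF9 sustain each other's expression and turn supporting cells into Sertoli cells. SOX9, helped by the related factor SOX8, then drives Amh, the hormone that makes the Müllerian ducts regress, and Ptgds, the enzyme that makes prostaglandin D2. In the XX gonad the same precursor cells become pregranulosa cells, and after birth they surround single oocytes as primordial follicles form. DMRT1 keeps the male fate of Sertoli cells in the mouse testis, and it is also present in fetal germ cells of both sexes.

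A level is the log2 signal of a probe minus the 75th percentile of its array, so a level of 0 equals that percentile and a step of 1 is a doubling in brightness. Levels of different probes cannot be set against each other, because probes differ in brightness. A change is a difference of such levels in 1 linear model (limma) over all 18 arrays, with the 6 groups and the array run as terms, and it was called at an adjusted p under 0.05 over 19299 genes. An array spot is called well above background by the scanner software, and a probe entered the fit when it was so on all 3 arrays of at least 1 group. Of the 8 genes, 7 entered, and Dmrt1 did not. Sox8 entered through its brighter probe in the WT groups at E17.5 and P0 only. Values after SE are standard errors, and values after ± are standard deviations with n = 3.

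Between 62.5% and 75.2% of probes were well above background on an array, and Pearson's r across genes between arrays of a group lay between 0.965 and 0.995. The Elavl2 change in KO was -0.11 at E15.5 (adjusted p = 0.75), then -0.87 at E17.5 (adjusted p = 0.0045), and it reached -1.36 at P0 (adjusted p = 9.11e-06). Whether its probes lie in the deleted stretch is not known, and the genotype labels are thus not checked by them. The arrays came from 2 runs: A, with all E15.5 arrays and replicate 3 of both E17.5 groups, and B, with the rest. They sat on 7 slides. At E15.5 and P0 no slide held both genotypes. With the slide as a random block (correlation within slides 0.0806), the 5 calls made at P0 for these genes stayed past the threshold. Since the P0 genotypes sat on different slides, that fit cannot exclude a slide effect.

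Of the 7 genes tested at P0, 1 was higher and 4 were lower in KO, beside 34.5% of all genes called at that stage, 18.3% higher and 16.2% lower. Tesc fell most, to a level 7.21-fold below that of WT, followed by Sox8 (2.47-fold lower), Ptgds (1.55-fold lower) and Fgf9 (1.28-fold lower). Sox9 was 1.38-fold higher in KO. Amh and Cst9 did not pass the test. Dmrt1, dim throughout, had signal on KO arrays at P0 and none well above background on WT arrays.

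**Figure D1:**
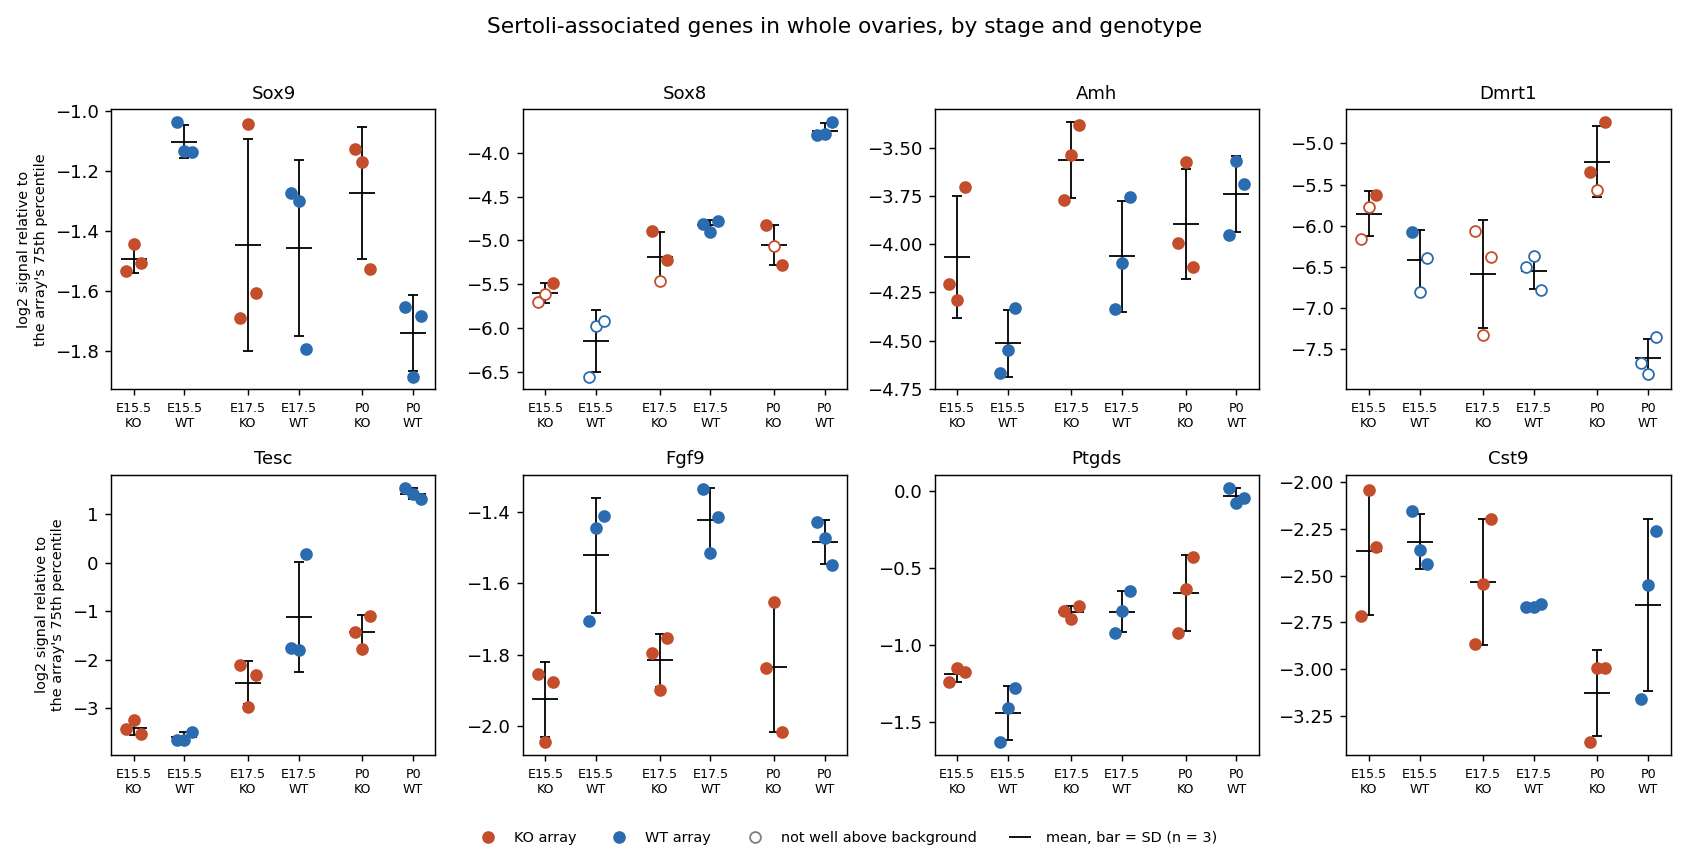
Level of each gene on every array (vertical axis, log2 signal relative to the array's 75th percentile) by stage and genotype, KO left of WT; bars are the mean and SD of 3 arrays, and open points were not well above background. At P0 the 3 KO arrays lie below the 3 WT arrays for Tesc, Sox8, Ptgds and Fgf9 and above them for Sox9 and Dmrt1.

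Sox9, the central transcription factor of Sertoli cell fate, was measured by 3 probes on chromosome 11. The brightest lies at chr11:112647008-112647067 on the plus strand (mm9). At E15.5 its levels were -1.54, -1.45 and -1.51 on KO arrays, against -1.04, -1.13 and -1.14 on WT arrays. At E17.5 they were -1.69, -1.04 and -1.61 on KO arrays, against -1.27, -1.30 and -1.80 on WT arrays. At P0 they were -1.13, -1.17 and -1.53 on KO arrays, against -1.66, -1.89 and -1.68 on WT arrays. The groups were thus apart at E15.5, with KO lower, overlapped at E17.5, and were apart at P0, with KO higher.

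The Sox9 change was 0.47 at P0 (SE 0.15, adjusted p = 0.0254). It was -0.39 at E15.5 (SE 0.15, adjusted p = 0.22) and 0.01 at E17.5 (95% interval -0.31 to 0.32). The difference between the P0 and the E15.5 change was 0.86 (SE 0.21, adjusted p = 0.0127), whereas that between P0 and E17.5 did not pass the test (0.46, adjusted p = 0.171). In WT ovaries Sox9 fell by 0.60 between E15.5 and E17.5 (adjusted p = 0.0257) and by 0.41 between E17.5 and P0 (adjusted p = 0.0467). These calls were lost in 7 and 11 of 22 alternatives, the earlier step without E17.5 WT replicate 3 (-0.43, adjusted p = 0.363), without E15.5 WT replicate 1 (adjusted p = 0.0657) and with no run term (-0.35), and the later step without any of the 3 P0 WT arrays or of E17.5 WT replicates 1 and 2 (adjusted p = 0.0604 to 0.151). In KO ovaries neither step was called, at -0.20 and 0.05. The difference between the genotypes in the later step is the 0.46 above, which did not pass the test, and that in the earlier step was not tested. The order of the 6 group means ran from WT at E15.5 (-1.10) at the top to WT at P0 (-1.74) at the bottom, and every group between them overlapped its neighbours in that order, apart from KO at E15.5, which stood clear of WT at P0.

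The call for Sox9 at P0 was lost in 6 of 22 alternatives, among them the fit without P0 WT replicate 2 (0.39, adjusted p = 0.0969), without P0 KO replicate 1 (0.39, adjusted p = 0.0888) and without P0 KO replicate 2 (0.41, adjusted p = 0.0782). A further probe, present in 10 spots per array at chr11:112648809-112648868, gave 0.53 at P0 (adjusted p = 0.0285), with -1.46, -1.76 and -1.98 on KO arrays against -2.36, -2.32 and -2.10 on WT arrays. Between E17.5 and P0 that probe changed by -0.43 in KO (adjusted p = 0.0729), unlike the 0.05 of the brightest probe, and by -0.73 in WT (adjusted p = 0.00574). The last probe lies in the coding sequence and spans 853 bases of the genome, chr11:112644310-112645162. It was dim, with 0 of 3 KO arrays and 1 of 3 WT arrays well above background at P0, and gave no measure of the change there. Its sequence, within the stretch that encodes the DNA-binding box shared by SOX proteins, shows which part of Sox9 that dim reading comes from:
Sox9 coding probe: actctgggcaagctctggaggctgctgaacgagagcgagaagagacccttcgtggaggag

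Sox8, which acts beside SOX9 in Sertoli cells, was measured by 2 probes on the minus strand of chromosome 17. The brighter lies at chr17:25703094-25703153 and stands for the gene. At E15.5 its levels were -5.70, -5.61 and -5.48 on KO arrays, of which 1 was well above background, against -6.55, -5.98 and -5.92 on WT arrays, of which none was. At E17.5 they were -4.90, -5.47 and -5.22 on KO arrays, against -4.81, -4.90 and -4.77 on WT arrays. At P0 they were -4.82, -5.06 and -5.28 on KO arrays, against -3.80, -3.79 and -3.65 on WT arrays. The 3 WT arrays at P0 were the highest of all 18, and the KO arrays at P0 overlapped those of E17.5.

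Sox8 changed by -1.30 at P0 (SE 0.18, adjusted p = 0.000159), where 2 of 3 KO arrays were well above background. The probe entered the fit only through the WT groups at E17.5 and P0, where it was brightest. Tests that use these groups are therefore not free of that selection. At E17.5 the change was -0.37 (95% interval -0.75 to 0.02, adjusted p = 0.245). At E15.5, where 1 of 3 KO arrays and 0 of 3 WT arrays were well above background, the fitted change of 0.55 did not pass the test (adjusted p = 0.149). In WT ovaries the level rose at both steps. At E17.5 against E15.5 it rose by at least 2.36-fold, a bound without the run correction. The fitted difference of 1.33 had an adjusted p of 0.000939, which is no test of the bound. Its call was lost in 3 of 22 alternatives. They were normexp and quantile normalization (0.16, adjusted p = 0.195), the dimmer probe (adjusted p = 0.052) and leaving out E17.5 WT replicate 3 (adjusted p = 0.0532). At P0 against E17.5 the level rose by 1.09 (SE 0.19, adjusted p = 0.000602), a call lost with the dimmer probe only (adjusted p = 0.0936). In KO ovaries the steps were 0.42 (adjusted p = 0.177) and 0.15 (adjusted p = 0.581). The later KO step was called higher in 2 of 22 alternatives. With the dimmer probe it was 0.75 (adjusted p = 0.00962), against 0.44 in WT, and with the mean of the gene's probes 0.45 (adjusted p = 0.0422). For the brighter probe the P0 change minus that at E17.5 was -0.94 (adjusted p = 0.0317), and minus that at E15.5 it was -1.86 (adjusted p = 0.000523).

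The dimmer Sox8 probe, at chr17:25705869-25705928, did not carry this pattern. Its levels at P0 were -5.35, -4.73 and -5.54 on KO arrays, against -5.04, -5.09 and -4.81 on WT arrays, and its change was -0.23 (SE 0.19, adjusted p = 0.364). With that probe the difference between the P0 and E17.5 changes was 0.31 (adjusted p = 0.48), of the opposite sign. The P0 change minus that at E15.5 was -0.11 with it (adjusted p = 0.811). The results for Sox8 therefore hold for the brighter probe, not for both. Brighter here means a higher mean over all 18 arrays, not better detection. At P0 the dimmer probe was well above background on 3 of 3 KO and 3 of 3 WT arrays. The brighter one was so on 2 of 3 KO and 3 of 3 WT arrays. At E15.5 the dimmer probe was so on 2 of 3 KO and 3 of 3 WT arrays, the brighter one on 1 of 3 and 0 of 3. The dimmer probe reads the coding sequence:
Sox8 coding probe: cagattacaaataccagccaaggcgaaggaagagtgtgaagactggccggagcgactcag

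**Figure D2:**
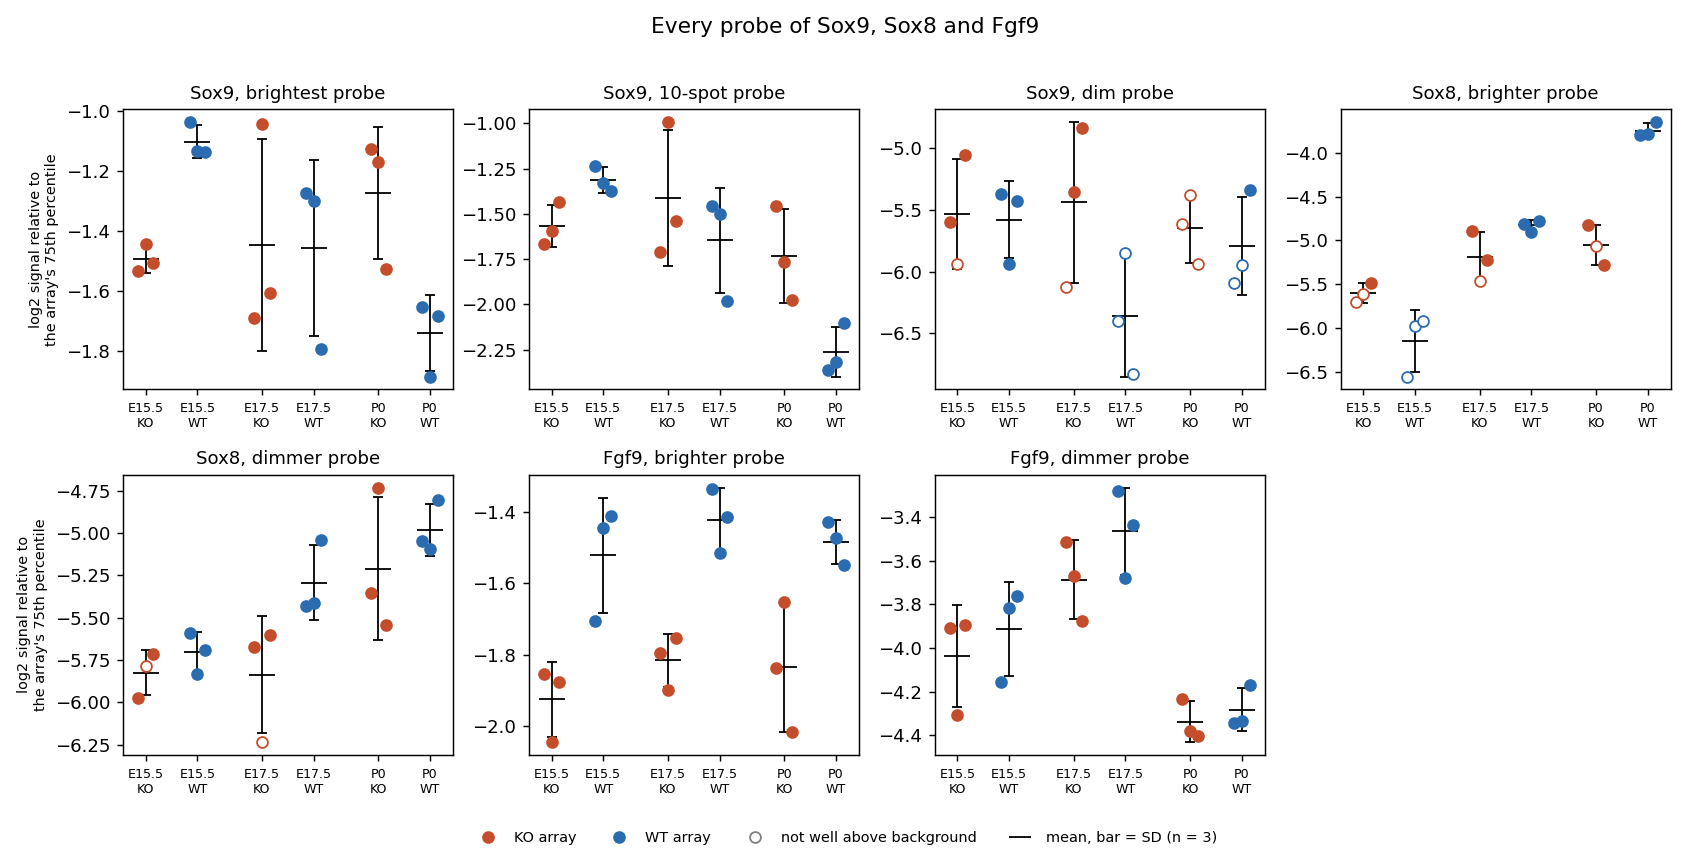
Levels of all probes of Sox9, Sox8 and Fgf9 on every array (vertical axis, log2 signal relative to the array's 75th percentile; KO left of WT; bars are the mean and SD of 3 arrays; open points were not well above background). At P0 both brighter Sox9 probes are higher in KO, while the Sox8 and Fgf9 probes disagree: KO and WT are apart for the brighter probe of each and overlap for the dimmer one.

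Dmrt1, a transcription factor with a zinc finger-like DM domain, was read by 1 probe at chr19:25677951-25678010 on the plus strand. At P0 its levels were -5.35, -5.56 and -4.74 on KO arrays, of which 2 were well above background, against -7.66, -7.79 and -7.35 on WT arrays, of which none was. These groups were far apart, with measured means of -5.22 in KO and -7.60 in WT. Since the WT signal was not well above background, the change has only a bound: Dmrt1 was at least 1.29-fold higher in KO at P0, with the dim KO array counted in. The difference as measured had an adjusted p of 0.000285 in the limma fit of all probes without the filter, which is no test of the bound. At E17.5 all 6 arrays were not well above background, and the KO level at P0 was at least 1.55-fold higher than at E17.5 (adjusted p = 0.01 for the measured difference, in the fit without the filter). At E15.5 1 KO array and 1 WT array were well above background, at -5.63 and -6.07.

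Fgf9, the secreted growth factor that sustains SOX9 in the XY gonad, was measured by 2 probes on the plus strand of chromosome 14. The brighter lies at chr14:58728424-58728483. At E15.5 its levels were -1.85, -2.05 and -1.88 on KO arrays, against -1.71, -1.45 and -1.41 on WT arrays. At E17.5 they were -1.79, -1.90 and -1.75 on KO arrays, against -1.34, -1.52 and -1.41 on WT arrays. At P0 they were -1.84, -1.65 and -2.02 on KO arrays, against -1.43, -1.47 and -1.55 on WT arrays. KO was below WT at each stage with no overlap between the groups.

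The Fgf9 change had nearly the same size at each stage: -0.40 at E15.5 (adjusted p = 0.0733, SE 0.10), -0.39 at E17.5 (adjusted p = 0.0522, SE 0.10) and -0.35 at P0 (adjusted p = 0.0195, SE 0.10). It passed the test at P0. The change at P0 differed from that at E15.5 by 0.05 (95% interval -0.27 to 0.37) and from that at E17.5 by 0.04 (95% interval -0.28 to 0.36). No step between stages was called in either genotype, and the 3 WT group means (-1.42 to -1.52) lay above the 3 KO group means (-1.82 to -1.93). The dimmer probe, at chr14:58730851-58730910, gave -0.12, -0.22 and -0.06 at the 3 stages in turn, and none was called (adjusted p = 0.759, 0.394 and 0.791). That probe fell by 0.69 at P0 against E17.5 in KO (adjusted p = 0.0035) and by 0.86 in WT (adjusted p = 0.000818), which the brighter probe did not show. The call at P0 was lost in 7 of 22 alternatives, among them scaling by the array median (-0.21, adjusted p = 0.135), and the fits without P0 WT replicate 1 (adjusted p = 0.0657), P0 WT replicate 2 (adjusted p = 0.0549) and P0 KO replicate 3 (adjusted p = 0.0804).

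Amh encodes anti-Müllerian hormone, made by Sertoli cells and, after birth, also by granulosa cells of growing follicles. Its probe lies in the coding sequence at chr10:80270208-80270267 on the plus strand:
Amh probe: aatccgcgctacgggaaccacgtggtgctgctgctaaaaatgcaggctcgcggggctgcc
At E15.5 its levels were -4.21, -4.29 and -3.70 on KO arrays, against -4.67, -4.55 and -4.33 on WT arrays. At E17.5 they were -3.77, -3.53 and -3.38 on KO arrays, against -4.33, -4.10 and -3.76 on WT arrays. At P0 they were -3.99, -3.57 and -4.12 on KO arrays, against -3.95, -3.57 and -3.69 on WT arrays. All 18 arrays were well above background. The groups were apart at E15.5, with KO higher, and overlapped at the later stages. No genotype change passed the test: it was 0.45 at E15.5 (adjusted p = 0.254), 0.50 at E17.5 (adjusted p = 0.127) and -0.16 at P0 (95% interval -0.54 to 0.23). Amh rose at E17.5 against E15.5 by 0.75 in KO (adjusted p = 0.0282) and by 0.70 in WT (adjusted p = 0.0329). The KO call was lost in 8 of 21 alternatives and the WT call in 12 of 21. With normexp and quantile normalization the steps were 0.22 in KO (adjusted p = 0.116) and 0.18 in WT (adjusted p = 0.19), and with no run term they were 0.50 in KO (adjusted p = 0.0725) and 0.45 in WT (adjusted p = 0.105). Without E17.5 KO replicate 3 the KO step was 0.87 (adjusted p = 0.118), and without E17.5 WT replicate 3 the WT step was 0.57 (adjusted p = 0.325). Leaving out E15.5 KO replicate 1 or 2, E15.5 WT replicate 1 or 2, or E17.5 WT replicate 2 also ended the call of its genotype. At P0 against E17.5 the steps were -0.21 in KO (adjusted p = 0.422) and 0.45 in WT (adjusted p = 0.0707).

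Ptgds encodes the lipocalin-type synthase of prostaglandin D2. Its probe spans 532 bases of the minus strand, chr2:25322842-25323373, so it reads across at least 1 intron:
Ptgds probe: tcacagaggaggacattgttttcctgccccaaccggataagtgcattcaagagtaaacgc
At E15.5 its levels were -1.24, -1.15 and -1.18 on KO arrays, against -1.63, -1.41 and -1.28 on WT arrays. At E17.5 they were -0.78, -0.83 and -0.75 on KO arrays, against -0.92, -0.78 and -0.65 on WT arrays. At P0 they were -0.92, -0.64 and -0.43 on KO arrays, against 0.03, -0.07 and -0.04 on WT arrays. The P0 WT arrays were the 3 highest of all, and the KO arrays at P0 overlapped those of E17.5.

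Ptgds changed by -0.63 in KO at P0 (SE 0.11, adjusted p = 0.00114), and the call stood in 21 of 21 alternatives, from -0.75 to -0.49. The change was -0.00 at E17.5 (95% interval -0.25 to 0.24) and 0.25 at E15.5 (adjusted p = 0.327). In WT ovaries Ptgds rose by 0.74 at E17.5 against E15.5 (adjusted p = 0.00233). That call was lost in 1 of 21 alternatives, the fit without E17.5 WT replicate 3 (0.65, adjusted p = 0.0979). At P0 against E17.5 it rose by 0.79 (adjusted p = 0.000256). In KO ovaries it rose by 0.49 at the earlier step (adjusted p = 0.025), a call lost in 7 of 21 alternatives, among them the fits without E17.5 KO replicate 3 (0.58, adjusted p = 0.101) and E15.5 KO replicate 1 (adjusted p = 0.0608), and with the array median (0.31, adjusted p = 0.219). The later step was 0.17 (95% interval -0.09 to 0.43, adjusted p = 0.303). The P0 change minus that at E17.5 was -0.63 (adjusted p = 0.0274, or 0.0643 with the replicate number as a block), and minus that at E15.5 it was -0.88 (adjusted p = 0.00296).

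Cst9 encodes testatin, a secreted protein of the cystatin family of protease inhibitors, known in mice from early Sertoli cells. Its probe lies at chr2:148664344-148664403 on the plus strand. At P0 its levels were -3.39, -2.99 and -3.00 on KO arrays, against -3.16, -2.55 and -2.26 on WT arrays, and the groups overlapped. The change was -0.05 at E15.5 (95% interval -0.54 to 0.43), 0.13 at E17.5 (95% interval -0.36 to 0.61) and -0.47 at P0 (95% interval -0.95 to 0.02, adjusted p = 0.121). No step between stages was called for Cst9 in either genotype. Its levels at the 2 earlier stages lay between -2.86 and -2.04 on KO arrays and between -2.67 and -2.16 on WT arrays. Without P0 WT replicate 1 the change at P0 was -0.72 (adjusted p = 0.0233).

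Tesc encodes tescalcin, a calcium-binding protein that in mice was found in the early testis. Its probe lies in the coding sequence at chr5:118511615-118511674 on the plus strand, and it carries the largest change among the 7 tested genes:
Tesc probe: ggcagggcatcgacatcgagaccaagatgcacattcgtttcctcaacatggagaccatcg
At E15.5 its levels were -3.42, -3.25 and -3.53 on KO arrays, against -3.65, -3.65 and -3.48 on WT arrays. At E17.5 they were -2.11, -2.97 and -2.32 on KO arrays, against -1.75, -1.79 and 0.19 on WT arrays. At P0 they were -1.42, -1.77 and -1.09 on KO arrays, against 1.55, 1.41 and 1.31 on WT arrays. The genotypes overlapped at E15.5 and were apart at E17.5 and P0, with KO lower. The KO arrays at P0 came near the level of E17.5 WT replicates 1 and 2.

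Tesc changed by 0.20 at E15.5 (95% interval -0.45 to 0.84), by -1.35 at E17.5 (SE 0.30, adjusted p = 0.0259) and by -2.85 at P0 (SE 0.30, adjusted p = 2.75e-05). The call at P0 stood in 21 of 21 alternatives, from -3.02 to -2.52. The call at E17.5 was lost in 9 of 21. The E17.5 WT replicate 3, at 0.19, stood far above the others of its group, and it alone of the WT arrays at that stage was of run A. Within run A, 1 KO array against 1 WT array, the difference was -2.50, and within run B, 2 against 2, it was -0.77. The summed level of 8 red cell genes, in units of the array's 75th percentile, was 205, 256 and 438 on the E17.5 KO arrays, against 207, 164 and 135 on the WT arrays, so replicate 3 was highest in KO and lowest in WT. The part of this in the Tesc change was not tested. Same-numbered E17.5 arrays deviated together, but they also shared a run, so run and pairing cannot be told apart there. With the replicate number as a block the E17.5 change did not pass the test (adjusted p = 0.106). Without E17.5 WT replicate 3 the change was -0.77 (adjusted p = 0.15), without E17.5 KO replicate 3 it was -0.77 (adjusted p = 0.151), without E17.5 KO replicate 2 it was -1.27 (adjusted p = 0.119) and without E17.5 WT replicate 1 it was -1.50 (adjusted p = 0.0572).

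Tesc rose at both steps in both genotypes. At E17.5 against E15.5 it rose by 1.66 in KO (SE 0.37, adjusted p = 0.00693) and by 3.20 in WT (SE 0.37, adjusted p = 9.38e-05). At P0 against E17.5 it rose by 1.40 in KO (SE 0.32, adjusted p = 0.0041) and by 2.91 in WT (SE 0.32, adjusted p = 2.58e-05). These changes are corrected for the run, with the same run term for both genotypes. With no run term the KO steps were 0.93 (adjusted p = 0.103) and 1.04 (adjusted p = 0.0567), so both KO calls were lost. Within run A the earlier step was 1.08 in KO and 3.78 in WT (1 array against 3 each), and within run B the later step was 1.11 in KO and 3.20 in WT (3 arrays against 2 each). The P0 change minus that at E15.5 was -3.05 (adjusted p = 0.000651), and minus that at E17.5 it was -1.50 (adjusted p = 0.0404, or 0.111 with the replicate number as a block).

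**Figure D3:**
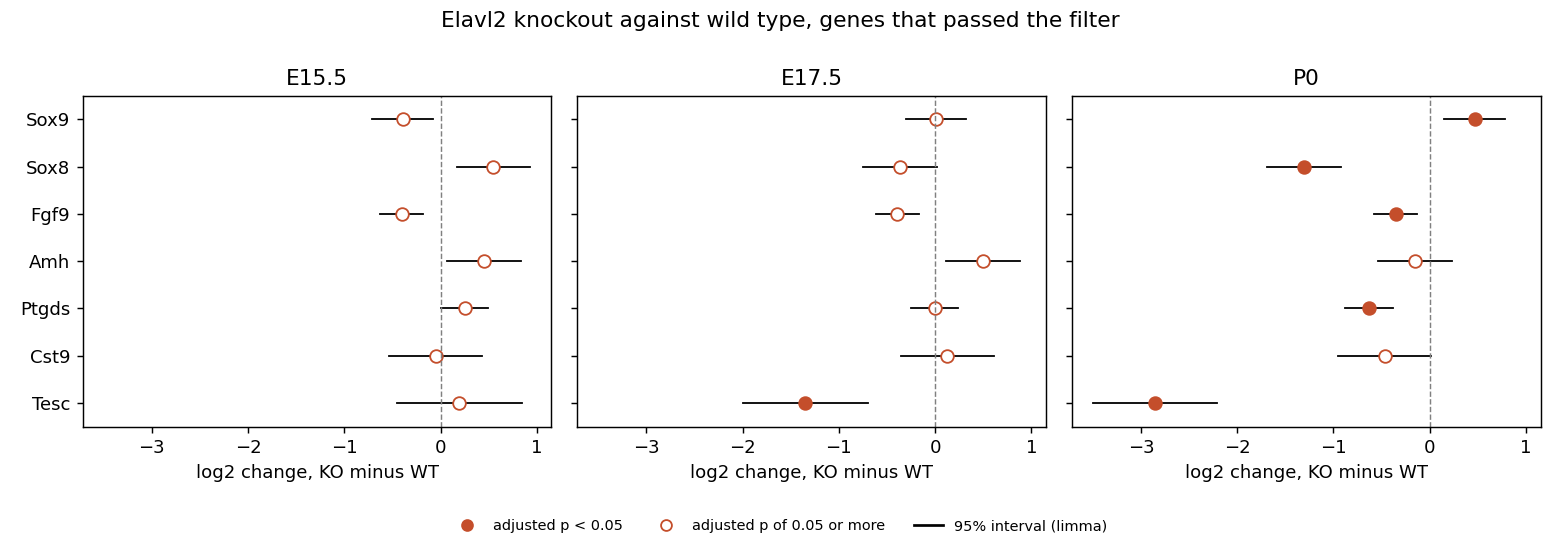
Change of each tested gene at the 3 stages (horizontal axis, log2 change, KO minus WT; points are fitted changes, lines their 95% intervals, and filled points have an adjusted p under 0.05). Tesc moves to -1.35 at E17.5 and -2.85 at P0, the brighter Fgf9 probe stays between -0.40 and -0.35, and Sox9 lies at -0.39 at E15.5 and 0.47 at P0.

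Counted over the stages, 0 of the 7 tested genes were called at E15.5, where 1.62% of all genes were called, and 1 of 7 (Tesc, lower) at E17.5, where 4.15% were, 2.82% lower. The arrays of KO and WT did not overlap for 5 of the 7 genes at E15.5 (23.8% of all genes). They did not for 2 genes at E17.5 (19.1% of all genes), nor for 5 genes at P0 (48.3% of all genes). Between E15.5 and E17.5, 3 of 7 were called in KO, all higher, beside 21.8% of all genes called and 11.8% higher. In WT 5 of 7 were called at that step, 4 higher and 1 lower, beside 26.4% of all genes called, 15.3% higher and 11.1% lower. Between E17.5 and P0, 1 of 7 was called in KO, Tesc, higher, beside 37.2% of all genes called and 18.2% higher. In WT 4 of 7 were called there, 3 higher and 1 lower, beside 43.3% of all genes called, 22.1% higher and 21.1% lower. The KO and WT steps compare different arrays, but the fit takes its run term and its spread from both genotypes. The steps are thus not independent, and the genotype and stage comparisons share arrays with each other. The difference of the genotype change between P0 and E17.5 was called for Tesc, Sox8 and Ptgds, all lower, beside 10.4% of all genes called and 6.15% lower. That between P0 and E15.5 was called lower for the same 3 genes and higher for Sox9, beside 20% of all genes called, 9.52% higher and 10.4% lower.

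Across the 18 arrays, with the run effect subtracted, Tesc, Ptgds and Sox8 varied together: Pearson's r was 0.953 between Tesc and Ptgds, 0.944 between Tesc and Sox8 and 0.929 between Ptgds and Sox8. Sox9 ran the other way, at -0.851 with Tesc, -0.882 with Sox8 and -0.886 with Ptgds. Amh lay between, at 0.776 with Ptgds and 0.649 with Tesc. Fgf9 and Cst9 had an r between -0.24 and 0.44 with each other gene. These values describe 18 arrays that share 6 groups, so they mostly restate the order of the groups.

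Since Tesc, Ptgds and Sox8 were lower together in KO at P0, their promoters are shown, the 250 bases before each start site from RefSeq's GRCm38.p6 table, which holds 5 of the 8 genes. Capitals mark matches to CANNTG, the E-box, searched on both strands, and ACAAT, a core bound by SOX factors, was searched the same way. Tesc is at chr5:118027493-118027742 (plus strand), Ptgds at chr2:25469750-25469999 (minus strand) and Sox8 at chr17:25570687-25570936 (minus strand).
Tesc promoter: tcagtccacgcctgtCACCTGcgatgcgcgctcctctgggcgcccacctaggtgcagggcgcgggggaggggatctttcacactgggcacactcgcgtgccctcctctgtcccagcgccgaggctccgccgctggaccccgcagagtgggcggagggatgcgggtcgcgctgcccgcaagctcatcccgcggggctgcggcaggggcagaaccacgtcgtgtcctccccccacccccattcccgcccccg
Ptgds promoter: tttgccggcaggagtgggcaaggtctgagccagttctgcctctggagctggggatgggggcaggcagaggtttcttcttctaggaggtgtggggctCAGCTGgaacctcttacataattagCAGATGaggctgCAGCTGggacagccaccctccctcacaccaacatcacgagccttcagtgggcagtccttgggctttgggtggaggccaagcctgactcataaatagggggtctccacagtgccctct
Sox8 promoter: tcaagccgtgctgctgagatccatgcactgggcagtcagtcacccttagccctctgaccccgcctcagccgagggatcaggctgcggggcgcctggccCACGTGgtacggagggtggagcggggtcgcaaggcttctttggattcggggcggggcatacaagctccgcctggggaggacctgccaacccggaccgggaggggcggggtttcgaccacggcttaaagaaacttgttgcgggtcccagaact
Ptgds held 3 E-boxes, starting at -154, -129 and -117, Tesc 1 at -235 and Sox8 1 at -152. Of 32851 promoters in the table, 66.2% held at least 1 E-box in the same window. The SOX core was in none of these 3 windows, nor in those of Fgf9 and Cst9, and in 27.7% of all promoters. Cst9 held 2 E-boxes and Fgf9 none. A match of letters is no bound site, and a missing match says only that these letters are not in the window.

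The genes whose profile over the 18 arrays was most like each of the 7 were found by Pearson's r after the run effect was subtracted. For Tesc they were Fbxw16 (0.995) and Fbxl2 (0.990), both F-box protein genes, and the ubiquitin protease gene Usp2 (0.995). For Ptgds they were LOC102638292 (0.973), the small GTPase gene Rab25 (0.969) and the interleukin receptor gene Il17rc (0.969). For Sox8 they were the myosin gene Myh2 (0.965), 1700021F07Rik (0.960) and the PI3-kinase subunit gene Pik3cd (0.959). For Sox9 the highest was the imprinted gene Peg10 (0.945), ahead of the transcription factor gene Maf (0.921) and Zcchc3 (0.920). For Amh it was the probe A_52_P988817 (0.959), which carries no gene symbol, ahead of Trp53 (0.953), which encodes p53, and Sprr2b (0.951). Fgf9 and Cst9 had looser company, led by Fank1 (0.917) for Fgf9 and Zfp784 (0.887) for Cst9. Fam221b (0.870) and Zmynd12 (0.827) followed for Fgf9, and Angptl4 (0.844) and Gramd3 (0.833) for Cst9.

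The samples were whole ovaries, in which fewer cells of a type and less RNA per cell cannot be told apart. Germ cells are the other large cell class there. Over 14 germ cell and oocyte markers, the mean level per array lay between 0.37 and 0.70 in KO and between 0.23 and 0.55 in WT at E15.5. At E17.5 it lay between 0.66 and 1.22 in KO and between 0.97 and 1.43 in WT. At P0 it lay between 1.48 and 1.70 in KO and between 2.56 and 2.59 in WT. The marker level at P0 was thus lower in KO with no overlap, as for Tesc, Ptgds and the brighter probes of Sox8 and Fgf9. The arrays of KO and WT did not overlap for 48.3% of all genes at that stage. The marker list did not move as one. At P0 3 of the 14 markers were called higher, 4 lower and 7 not, with a median change of -0.22, beside 18.3% of all genes higher and 16.2% lower. Gdf9, an oocyte-secreted growth factor, changed by -3.30 (SE 0.27, adjusted p = 4.52e-06) and Zp3, a coat protein of the egg, by -5.32 (SE 0.42, adjusted p = 3.3e-06). The 3 higher markers, picked out after their values were seen, were the meiotic entry gene Stra8 (3.26, adjusted p = 0.000133), the germ cell RNA-binding protein gene Dazl (0.86, adjusted p = 0.00035) and the synaptonemal complex gene Sycp1 (0.35, adjusted p = 0.0169). The part of germ cell content in the changes of the Sertoli-associated genes was not tested.

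Granulosa cells and their precursors are the ovarian counterpart of Sertoli cells. Of 22 granulosa and female pathway genes measured at P0, 13 were higher in KO, 3 lower and 6 not called, beside 18.3% of all genes higher and 16.2% lower (median change 0.42, against -0.00 over all genes). The 4 with the smallest adjusted p were all higher: the gonadal transcription factor genes Lhx9 (0.94, adjusted p = 0.000256) and Emx2 (0.70, adjusted p = 0.000565), and the nuclear receptor genes Nr2f2 (0.62, adjusted p = 0.000879) and Nr0b1 (0.72, adjusted p = 0.00123). Foxl2, which keeps granulosa cell fate and was picked out after its value was seen, gave -0.13 (adjusted p = 0.386). The mean level over the list lay between 0.76 and 0.92 on KO arrays at P0, against 0.45 to 0.58 on WT arrays. At E15.5 0 of these 22 genes were called (1.62% of all genes) and at E17.5 1, Nr2f2 (4.15% of all genes).

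Of 39 other Sertoli cell and testis pathway genes measured at P0, 16 were higher in KO, 9 lower and 14 not called, beside 18.3% of all genes higher and 16.2% lower (median change 0.11). Among those with the smallest adjusted p were the gonadal transcription factor gene Gata4 (0.94, adjusted p = 0.000365), the keratin gene Krt18 (0.55, adjusted p = 0.000386) and the Polycomb gene Cbx2 (-0.53, adjusted p = 0.000416). Sry, the switch gene of the Y chromosome, and Tsx and Fgf20 were on the array and did not pass the filter. At E15.5 and E17.5 0 of these 39 genes were called, beside 1.62% and 4.15% of all genes. Some genes stand on more than 1 list, since supporting cells of both sexes share them.

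Of 17 receptors and transducers of the AMH, FGF9 and prostaglandin D2 signals, 6 were higher in KO at P0, 3 lower and 8 not called (median change 0.13). The share of all genes was 18.3% higher and 16.2% lower, and the count of lower members lay near it. The type I receptor gene Acvr1 rose by 0.53 (adjusted p = 0.000267), and Bmpr1b, of the same receptor class, changed by -0.75 (adjusted p = 0.000181). The FGF receptor genes Fgfr2 and Fgfr3 rose by 0.46 (adjusted p = 0.0018) and 0.39 (adjusted p = 0.00142). Amhr2, the receptor that binds AMH itself, picked out after its value was seen, gave 0.20 (adjusted p = 0.142). Ptgdr, a receptor of prostaglandin D2, and Ptgs2 did not pass the filter. At E15.5 and E17.5 0 of the 17 were called (1.62% and 4.15% of all genes).

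Sox9 is also active in cartilage, and Sox8 and Sox9 in neural crest, glia and tubule epithelia, so markers of these tissues were read as well, to be set beside 18.3% of all genes higher and 16.2% lower. At P0, 3 of 8 cartilage markers were higher in KO, led by the collagen gene Col2a1 (1.07, adjusted p = 0.00336), and 1 was lower, the matrix gene Comp (-0.65, adjusted p = 0.0139). Their summed level, in units of the array's 75th percentile, lay between 8.32 and 10.3 on KO arrays and between 5.99 and 6.43 on WT arrays. Of 10 markers of the rete and mesonephric tubules, 4 were higher and 2 lower, with Spp1, a secreted phosphoprotein, at 1.43 (adjusted p = 0.00042) and the cadherin gene Cdh1 at -0.83 (adjusted p = 0.00294). Their summed level lay between 26.2 and 32.5 on KO arrays and between 20.3 and 25.4 on WT arrays. Of 7 neural crest and glial markers, 2 were higher, among them Fabp7 (0.76), and 5 not called. Their summed level lay between 4.54 and 5.55 on KO arrays and between 3.85 and 4.16 on WT arrays. The sums, which follow the brightest genes, were thus higher in KO at P0 with no overlap for all 3 lists, but the mean log2 levels overlapped for each. These means lay between -2.26 and -2.01 in KO and between -2.24 and -2.22 in WT for cartilage, and between -1.27 and -1.09 in KO and between -1.37 and -1.24 in WT for the tubules. For neural crest and glia they lay between -2.45 and -2.16 in KO and between -2.38 and -2.11 in WT. The median changes were 0.32 for cartilage, 0.03 for the tubules and 0.00 for neural crest and glia. The part of these tissues in the Sox9 change was not tested. Of 9 Leydig and steroidogenic cell genes 1 was higher, Pdgfra (0.34, adjusted p = 0.00512), and of 8 red cell genes 0 were called at P0. The summed level of the red cell genes at P0 was 72.8, 72.8 and 64.2 on KO arrays, against 45.1, 143 and 54.6 on WT arrays, so that WT replicate 2 stood apart.

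**Figure D4:**
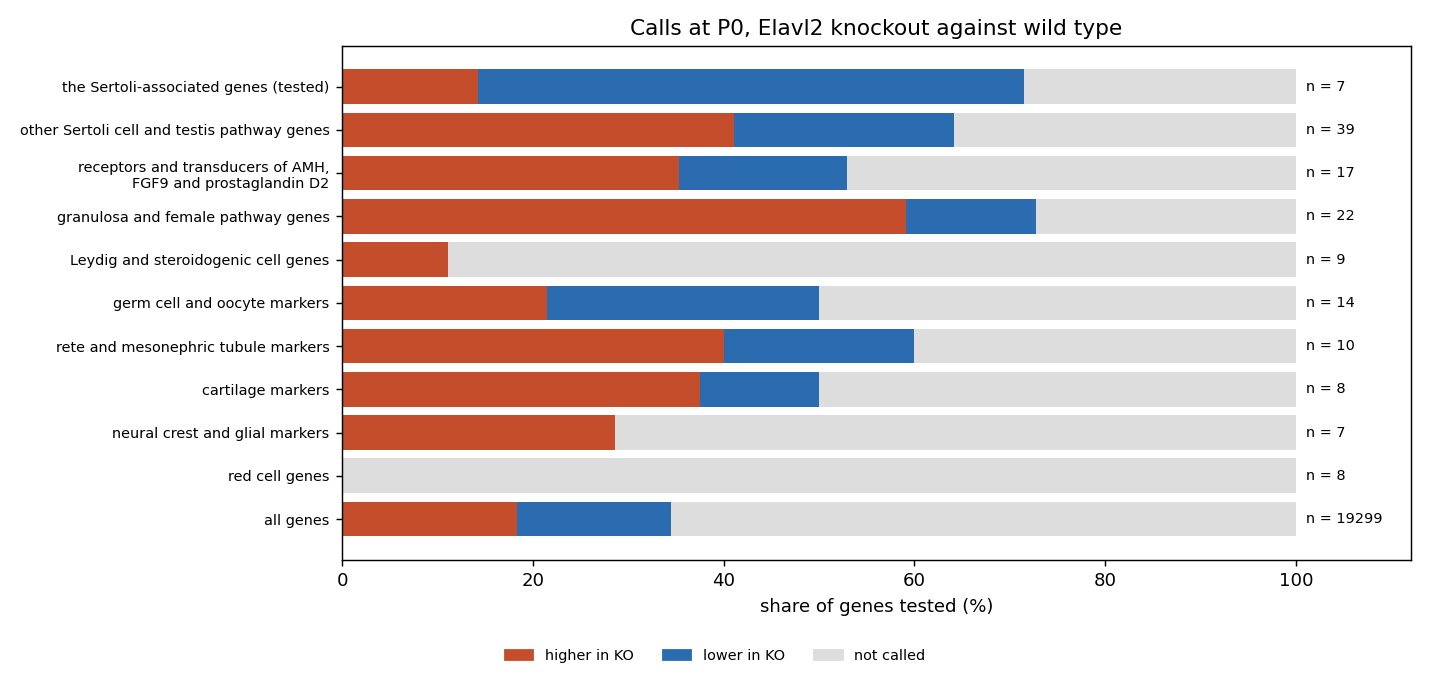
Share of each gene list called higher or lower in KO at P0 (horizontal axis, percent of the genes tested, n at the right), beside all genes. Of the 7 Sertoli-associated genes 4 were lower and 1 higher, while of the 22 granulosa and female pathway genes 13 were higher and 3 lower.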

How the data were processed

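RNA of whole XX gonads was measured on Agilent 4x44K 1-colour mouse arrays, 18 samples in 6 groups of 3, grouped by the titles. Per the labels' protocols, Cy3-labelled cRNA was made from RNA purified on columns. The deposited scanner files hold background-subtracted intensity per spot, from the Feature Extraction software of Agilent, which the authors ran (10.7.3.1 per the file headers, 9.5 per the submitters' processing notes). The deposited matrix of log2 values equals those intensities after 1 shift per array, and it was used as an alternative.

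Control probes and outlier spots (51 to 109 per array) were left out, and none was saturated. The log2 intensity minus the array's 75th percentile was taken, spots of 1 probe were averaged, and 29203 of 41174 probes passed the filter (well above background on 3 of 3 arrays of a group). Names came from RefSeq accessions (GRCm38.p6, 28223 probes; 12951 kept the file's name), and the probe with the highest mean stood for a gene. Probe coordinates are mm9, as in the files. Exon and UTR annotation was not used here.

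The test was limma 3.58.1 in R 4.3.3 (lmFit, eBayes, Benjamini-Hochberg over 19299 genes), with 11 residual degrees of freedom and 9 comparisons. The run was read from the form of the file names and matches the scan day. A bound (at least N-fold) takes the mean of the brighter group over the dim group's detection floor. Where the dim signal itself was higher than the floor, that signal was taken. The floor is the faintest well-above-background signal per array, and bounds are not corrected for the run. Same-numbered arrays were taken as paired where every correlation of their deviations was over 0.1. This held at E17.5 (0.12, 0.40 and 0.45), and not at E15.5 (0.18, 0.20 and -0.12) or P0 (0.15, 0.10 and 0.08). The deviations were not corrected for the run. Same-numbered E17.5 arrays were of the same run, so run and pairing cannot be told apart there. The 8 genes and all lists were chosen with earlier results of these data known. The genes named are the 8, Elavl2, per list and genotype comparison up to 4 genes of smallest adjusted p, of which part is printed and some are not reported here, and the 3 most alike per gene.

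On simulated data made from these arrays, 1.5-fold changes were recovered in 37% of 100 genes for E15.5, in 57% for E17.5 and in 48% for P0, and 2-fold changes in 69%, 70% and 68% for the same stages. False calls made up 3.64%, 3.05% and 7.2%. In each set only 100 of 19250 genes were changed at each fold, with noise independent between arrays and no slide effect. In the real data 34.5% of genes were called at P0, so these shares need not hold for the comparisons here. Precision is limited by having 3 arrays a group. The alternatives were other background correction and scaling, the filter, the run term, the probe rule, moderation, array weights and the slide. Further ones were the samples in the fit, a replicate block and dropping each array of the groups compared in turn. Dropping slide 3 and taking the dimmer probe were added after the data had been seen. The plots were made with matplotlib 3.10.9 (Python 3.11.15).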

Additional observations from a re-analysis of the deposited data

Results flagged for a closer look

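For 4 of the genes the KO against WT change itself differed between stages by the interaction term of the fit (limma). The P0 change minus the E15.5 change was -3.05 for Tesc (SE 0.42, adjusted p = 0.000651), -1.86 for Sox8 (SE 0.25, adjusted p = 0.000523), -0.88 for Ptgds (SE 0.16, adjusted p = 0.00296) and 0.86 for Sox9 (SE 0.21, adjusted p = 0.0127). The P0 change minus the E17.5 change was -1.50 for Tesc (SE 0.42, adjusted p = 0.0404), -0.94 for Sox8 (SE 0.25, adjusted p = 0.0317) and -0.63 for Ptgds (SE 0.16, adjusted p = 0.0274). The differences from E15.5 stood for Tesc and Ptgds in 27 of 27 alternatives and for Sox8 and Sox9 in 27 of 28. The call was lost with the dimmer probe for Sox8 (-0.11, adjusted p = 0.811) and with the mean of the gene's probes for Sox9 (0.58, adjusted p = 0.167). The brighter Sox8 probe entered the fit only through WT at E17.5 and P0, so its tests are not free of that selection. At E15.5 it was well above background on 1 of 3 KO and 0 of 3 WT arrays. The differences from E17.5 lost their call for Tesc in 17 of 27, for Sox8 in 18 of 28, and for Ptgds in 8 of 27, the replicate block among them for Tesc (adjusted p = 0.111) and Ptgds (adjusted p = 0.0643). All E15.5 arrays were of run A and all P0 arrays of run B, so the difference between these stages also spans the runs.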

How the results depend on the processing

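Under the alternatives, 3617 values of named genes kept their side of the threshold, 209 lost a call and 60 gained one. The 3617 include values that changed sign while called in neither fit, such as Sox8 at E15.5 (-0.12 to 0.67). Of the called changes 1 turned: the P0 against E17.5 difference of Sox8, 0.31 with the dimmer probe. Counts of the 7 genes called moved as follows. At E15.5 (0) there was 1 with normexp and quantile normalization and 1 with array weights. At E17.5 (1) there were 2 with normexp, with quantile normalization, with the filter at 2 groups and with every probe tested. There were 0 with no run term, array weights, only the stages compared, the replicate block, and without slide 3, and 0 to 1 when 1 array was left out. At P0 (5) there were 3 with the mean of a gene's probes and with only the stages compared, and 3 to 5 when 1 array was left out, the 3 without P0 WT replicate 2. E17.5 against E15.5 in WT (5) gave 3 with normexp, with no run term, with the replicate block and without slide 3, and 1 to 5 when 1 array was left out (1 without E17.5 WT replicate 3, 3 without E15.5 WT replicate 1). The same step in KO (3) gave 1 with normexp, with the array median, with no run term and with the replicate block, and 1 to 3 when 1 array was left out (1 without E15.5 KO replicate 1 or E17.5 KO replicate 3). P0 against E17.5 in KO (1) gave 2 with no filter, which let in Dmrt1, 0 with no run term, 3 with the mean of a gene's probes, and 1 to 2 when 1 array was left out (2 without P0 KO replicate 1). The P0 against E17.5 difference of the genotype change (3) gave 0 with the array median and with array weights, 1 with quantile normalization, with the slide as a random block and with the replicate block, and 0 to 2 when 1 array was left out. The causes were not tested. P0 against E17.5 in WT (4) and the P0 against E15.5 difference (4) stayed within 1.5 times.

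Over all genes, the calls between genotypes ranged from 0 to 935 at E15.5 (312), from 1 to 1181 at E17.5 (801) and from 4797 to 7636 at P0 (6651), the lowest at the earlier stages with only the stages compared. Without slide 3, E17.5 and E15.5 lie in separate runs, and run and stage cannot be told apart. The signal of Dmrt1, of Sox8 at E15.5 and of the dim Sox9 probe was near background, which limits those values.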
